A study of Mus musculus with 18 samples.

Results

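Hearts of C57 mice labelled as Kcp knockout were compared after transverse aortic constriction (TAC), a narrowing of the aorta that makes the left ventricle pump against a raised pressure, and after a sham operation. The comparison took 5 knockout TAC libraries (replicates 1 to 5) and 3 knockout sham libraries (replicates 1, 3 and 4), chosen by the genotype and treatment labels, which makes 8 of the 18 libraries of the series. Knockout sham replicate 2 was left out because its library name, D144_D965, joins the names of replicates 3 (D144B) and 4 (D965B). The other 9 libraries were wild-type hearts, 4 after sham and 5 after TAC, and all 17 libraries apart from the one left out entered 1 model, so that the groups share an estimate of the spread. The study asked what loss of Kcp does to the remodelling of the pressure-loaded heart.

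The labels give the tissue as heart and do not name the chamber, the age or sex of the mice, the time from surgery to collection, how the knockout was made, or whether each library came from its own mouse. The p-values therefore measure the spread between these libraries, which may be technical in part. Values are FPKM, fragments scaled by transcript length and library total, a unit inferred from the values, and depth is unknown. Changes are differences of log2(FPKM + 1) with their standard error, which understate the change of genes near or below 1 FPKM. A gene passed the test at a Benjamini-Hochberg adjusted p under 0.05 in limma, a linear model fitted across all genes.

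The product of Kcp, kielin/chordin-like protein, is secreted, binds BMP and TGF-beta ligands and modulates their signalling. Its RNA (chromosome 6, 29473162 to 29508003 in GRCm38) stood at 0.666, 0.673 and 0.655 FPKM in knockout sham replicates 1, 3 and 4 and at 0.952, 0.935, 0.791, 0.637 and 0.494 FPKM in knockout TAC replicates 1 to 5. The TAC libraries lay both above and below sham, and the gene did not pass the test (log2 change 0.07 ± 0.11, limma adjusted p = 0.641). Wild-type hearts had 1.03 ± 0.279 FPKM after sham (mean ± SD, n = 4) and 1.12 ± 0.204 after TAC (n = 5). The 3 knockout sham libraries lay below the lowest wild-type sham library (0.794 FPKM), but Kcp RNA was not absent from them. As the labels do not say which exons were removed, this level does not check the genotype.

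The summed FPKM of the 18 libraries ran from 390453 to 432264. In the knockout libraries 11094 to 11376 genes reached 1 FPKM. Knockout sham replicate 2 lay between replicates 3 and 4 for 43.2% of genes, against 39.5% for replicate 1, and its root mean square distance to their mean was 0.157 on the log2 scale, against 0.181. Knockout TAC replicate 4 also has a joined name, D142_D958, neither part of which names another library, and it was kept. On the first principal component of the 8 libraries (67.3% of the variance) the sham libraries stood at -29.2, -32.3 and -26.6. The TAC libraries stood at 26.0, 4.79, 19.6, 21.2 and 16.5, so TAC replicate 2 was the one nearest to sham.

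A heart under lasting pressure load grows by enlarging its cardiomyocytes, which return to genes of the fetal heart and release natriuretic peptides. Fibroblasts become activated and lay down collagen and matricellular proteins, and the muscle moves from burning fatty acids towards other fuels. Adult cardiomyocytes rarely divide, so mitotic RNA in a loaded heart may come from several kinds of cell, which a piece of whole tissue does not separate.

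TAC changed a large share of the genes expressed in knockout hearts. Of 34714 genes in the table, 11937 reached 1 FPKM in at least 3 of the 17 libraries and were tested. Of these, 4633 (38.8%) passed, 2515 higher after TAC (21.1%) and 2118 lower (17.7%). Most changes were small. The median log2 change was 0.437 among genes called higher and -0.395 among genes called lower, and 308 rose and 120 fell by at least 1 on the log2 scale. Large changes were mostly rises, since 44 genes rose and 9 fell by at least 2, and 11 rose and 0 fell by at least 3. The median over all tested genes was 0.0138, beside which each list median below can be read. The libraries of sham and TAC did not overlap for 4269 of the 11937 tested genes, 3802 of them among the 4633 called.

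**Figure D1:**
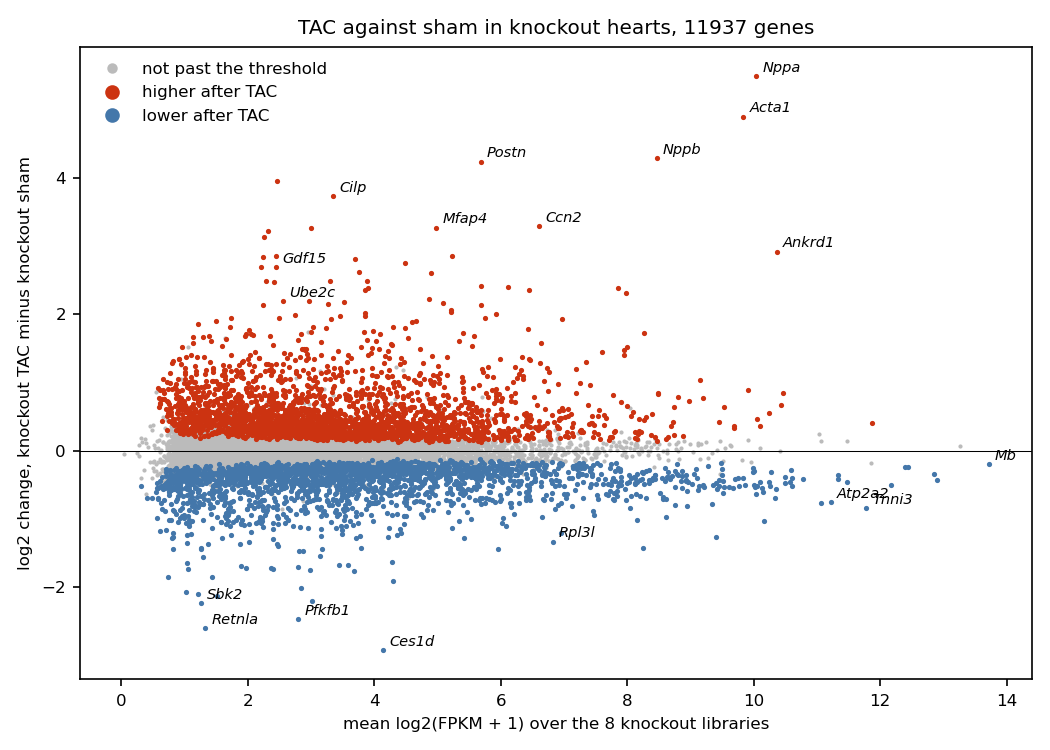
Log2 change from knockout sham to knockout TAC (vertical axis) against the mean log2(FPKM + 1) over the 8 libraries (horizontal axis), 1 point for each of 11937 tested genes. Genes called higher are red (2515), genes called lower blue (2118), and the named rises reach 5.50 for Nppa while the named falls reach -2.92 for Ces1d.

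The natriuretic peptides and the fetal actin led the rise. Nppa (chromosome 4, 148000722 to 148002074), which encodes atrial natriuretic peptide, had 83.3, 95.5 and 112 FPKM in sham replicates 1, 3 and 4 and 7472, 2191, 4104, 3931 and 6151 FPKM in TAC replicates 1 to 5. The groups were far apart, with replicate 2 lowest and replicate 1 highest after TAC. The log2 change was 5.50 ± 0.45 (limma adjusted p = 5.88e-07), a 49.2-fold rise of the mean. Nppb, the brain natriuretic peptide gene, went from 54.4, 41.1 and 70.2 to 1312, 594, 1163, 1105 and 1446 FPKM, with replicate 2 again lowest but replicate 5 highest (4.29 ± 0.32). Together the 2 peptides held 0.0319% to 0.0421% of the summed FPKM of the sham libraries and 0.679% to 2.15% of that of the TAC libraries.

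Acta1, the skeletal muscle actin that the fetal heart also uses, had 116, 29.5 and 368 FPKM in sham and 2431, 3417, 1961, 4114 and 5566 FPKM after TAC. The sham libraries differed widely among themselves, and all TAC libraries lay above them. The log2 change of 4.90 ± 0.64 (limma adjusted p = 3.44e-05) rests on that spread, at 3.97 without sham replicate 3 and 5.77 without sham replicate 4. Its order among the TAC libraries was not that of Nppa, since replicate 5 was highest and replicate 3 lowest. Ankrd1, a nuclear and titin-bound ankyrin repeat protein of stretched muscle, rose from 355, 318 and 448 to 3124, 2242, 2198, 2821 and 4024 FPKM (2.92 ± 0.28). Sprr1a, which encodes a small proline-rich protein, was listed at 0 in every sham library and at 21.6, 3.22, 12.8, 43.5 and 13.9 FPKM after TAC.

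**Figure D2:**
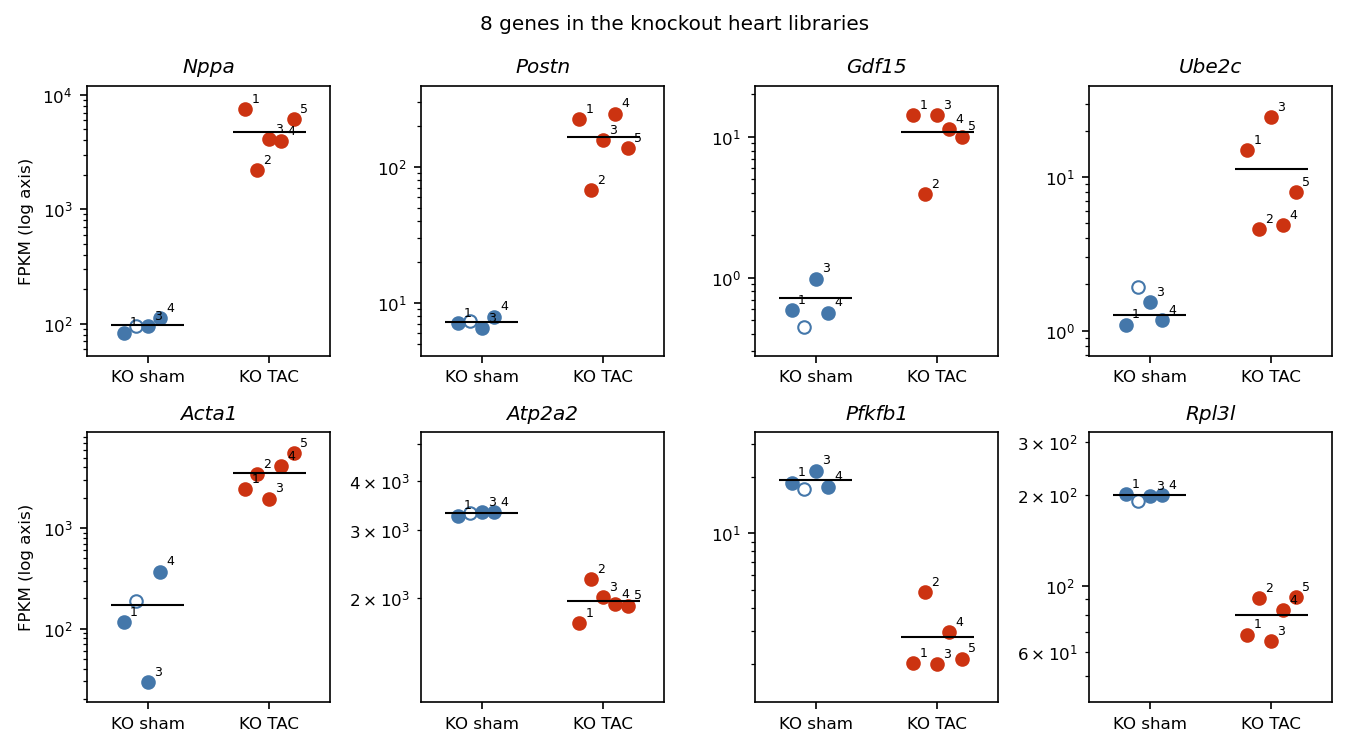
FPKM (log axis) of 8 genes in each knockout library, with replicate numbers, filled circles for the libraries compared, an open circle for knockout sham replicate 2 and a line at each group mean. Nppa, Postn, Gdf15, Ube2c and Acta1 lie higher in all 5 TAC libraries than in the 3 sham libraries, and Atp2a2, Pfkfb1 and Rpl3l lie lower.

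Of 20 tested genes on a list of load-induced cardiomyocyte genes, 18 rose and 0 fell, with a median log2 change of 1.80. Xirp2, a Xin repeat protein of the intercalated disc, rose from 31.3, 23.6 and 38.2 to 186, 115, 114, 233 and 189 FPKM (2.36 ± 0.25). Csrp3, the muscle LIM protein, rose less (0.55 ± 0.09), from a mean of 956 to 1410 FPKM. The 2 members that did not pass were Fhl2, a LIM protein (-0.16 ± 0.07, limma adjusted p = 0.0856, lower and past the threshold without sham replicate 3 at -0.22), and Edn1, the endothelin-1 gene (0.47 ± 0.31, adjusted p = 0.259). Among called genes whose libraries did not overlap, the 8 largest gains in FPKM were of Nppa, Acta1, Nppb, Ankrd1, Gapdh, Hspb7, Hspb6 and Des. Of these, Hspb7, a small heat shock protein of heart muscle, rose from 987 ± 103 to 1769 ± 111 FPKM (mean ± SD, sham n = 3 and TAC n = 5), and Des, which encodes the intermediate filament desmin, from 658 ± 62.4 to 1225 ± 194.

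The promoters of Acta1 and Ankrd1 are shown as members of this list that hold the letters GGAATG, the core of the site bound by TEAD factors, which act with YAP and TAZ. The sequences are the RefSeq windows in GRCm38.p6 from 250 bases before to 50 bases after the annotated start, written 5′ to 3′ on the strand of the gene, with GGAATG on either strand in capitals. Acta1 lies on the minus strand at chr8:123894726-123895025 and Ankrd1 on the minus strand at chr19:36119795-36120094.
Acta1: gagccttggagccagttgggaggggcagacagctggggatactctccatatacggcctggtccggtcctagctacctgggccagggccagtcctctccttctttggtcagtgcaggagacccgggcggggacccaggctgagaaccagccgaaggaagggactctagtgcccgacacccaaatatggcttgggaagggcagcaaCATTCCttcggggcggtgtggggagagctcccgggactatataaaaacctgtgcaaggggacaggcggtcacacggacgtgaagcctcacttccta
Ankrd1: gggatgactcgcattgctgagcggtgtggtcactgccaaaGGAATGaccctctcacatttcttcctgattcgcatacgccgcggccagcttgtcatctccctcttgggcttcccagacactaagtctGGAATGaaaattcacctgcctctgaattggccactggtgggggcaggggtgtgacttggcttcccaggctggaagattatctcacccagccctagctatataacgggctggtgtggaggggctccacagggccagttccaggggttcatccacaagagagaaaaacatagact
The Acta1 window holds the letters once, on the opposite strand, with its first base at position -46 from the start. The Ankrd1 window holds them at positions -210 and -123. GGAATG was present in the windows of 7 of the 20 listed genes with a window (35.0%) and of 16.6% of 27024 genes. Among tested genes it was in 16.1% of the windows of genes called higher, 15.7% of genes called lower and 13.5% of genes not called, shares that describe letters and not binding.

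The sarcomere lists split rather than moved as one. Of 24 sarcomere and Z-disc genes, 7 rose and 8 fell (median 0.08), beside 21.1% and 17.7% of all tested genes. Tnni3, the adult cardiac troponin I, fell from 4703, 5692 and 4861 to 2692, 3024, 2894, 2625 and 2905 FPKM (-0.84 ± 0.07, limma adjusted p = 2e-07). Myl2, the ventricular myosin light chain, fell from a mean of 9142 to 6820 FPKM (-0.42 ± 0.07), and Pdlim5, a Z-disc PDZ-LIM protein, rose from 250.3 to 454 (0.84 ± 0.15). The 8 largest losses by the same rule, of Myl2, Tnni3, Mb, Tpm1, Myh6, Atp2a2, Pln and Tnnt2, were all of muscle proteins. The falls of Mb, the myoglobin gene (-0.19 ± 0.06), and of Tnnt2, the cardiac troponin T gene (-0.23 ± 0.08), were small. Mb no longer passed without sham replicate 4 (-0.13) or with all 18 libraries (-0.15), nor Tnnt2 without sham replicate 3 (-0.13) or TAC replicate 3 (-0.19), and neither passed in a fit of only the 2 groups. The 10 markers of cardiomyocytes summed to 52000 to 55400 FPKM in sham and 41700 to 46700 after TAC. In whole tissue, fewer cells of a type and less RNA per cell cannot be told apart.

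Isoform pairs were set side by side within each library, which FPKM allows because it is scaled by length. Myh7, the slow fetal myosin heavy chain, made up 2.43%, 2.53% and 2.43% of Myh6 and Myh7 together in sham and 18.9%, 4.22%, 9.1%, 14.4% and 12.1% after TAC. All TAC libraries lay above sham, and replicate 2 lay nearest to it. The difference of the means was 9.28 percentage points, with 2-sided exact permutation p = 0.054 (adjusted over 4 pairs, 0.054), where 0.018 is the smallest p that 3 against 5 libraries allow. The exact permutation p was 0.029 without TAC replicate 2, but 0.057 without any 1 of TAC replicates 1, 3, 4 or 5. Without any 1 of the sham libraries it was 0.095. Acta1 rose from 1.65% ± 1.61 to 25.1% ± 6.91 of Acta1 and Actc1 together, Actc1 being the cardiac actin (exact permutation p = 0.018, adjusted 0.024).

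Rpl3l, a ribosomal protein made in striated muscle, moved against its general relative Rpl3. Rpl3l fell from 202, 198 and 201 to 68.7, 90.9, 65.4, 82.9 and 91.7 FPKM, while Rpl3 rose from 77.5, 77.6 and 77.9 to 180.2, 132, 160.2, 152 and 150.1 FPKM. Rpl3l thus went from 72.1% ± 0.213 to 34.1% ± 5.71 of the pair (exact permutation p = 0.018, adjusted 0.024). Nmrk2, the muscle form of nicotinamide riboside kinase in NAD synthesis, rose from 5.10, 5.41 and 2.86 to 39.1, 9.40, 33.7, 44.1 and 24.3 FPKM (2.38 ± 0.49) and from 67.1% ± 6.03 to 91.4% ± 7.37 of Nmrk1 and Nmrk2 (exact permutation p = 0.018, adjusted 0.024). For that share, any 1 of TAC replicates 1, 3, 4 or 5 left out gave exact permutation p = 0.057, with differences of 22.9 to 24.4 points.

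Ion channel genes mostly fell, while calcium cycling genes went both ways. Over all tested genes 21.1% were higher and 17.7% lower. Of 19 calcium cycling genes 3 rose and 6 fell (median 0.025). Atp2a2, which encodes the SERCA2 pump that refills the calcium store, went from 3260, 3327 and 3337 to 1725, 2242, 2013, 1930 and 1914 FPKM, all TAC libraries below sham and replicate 2 highest of them (-0.76 ± 0.09). Its inhibitor phospholamban (Pln, -0.77 ± 0.08) and Hrc, the histidine-rich calcium-binding protein (-0.84 ± 0.07), fell with it, whereas Casq2, the calcium buffer calsequestrin, rose (0.42 ± 0.07). Of 23 ion channel and gap junction genes, 16 fell and 1 rose (median -0.48). Kcnj3, a subunit of the acetylcholine-gated potassium channel, fell from 21.1, 22.1 and 21.3 to 7.52, 12.4, 4.91, 4.88 and 3.47 FPKM (-1.67 ± 0.25). Kcnv2, a silent potassium channel subunit, fell from 3.47, 2.77 and 4.20 to 0.438, 0.877, 0.467, 0.850 and 0.694 FPKM (-1.42 ± 0.13). Kcna5, a voltage-gated potassium channel, was the member that rose (0.64 ± 0.15).

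Several receptors for catecholamines fell as well. Of 16 adrenergic and natriuretic receptor pathway genes 3 rose and 5 fell (median 0.004), beside 21.1% and 17.7% of all tested genes. Those that fell included Adrb1, the main beta receptor of heart muscle (8.11 to 4.02 FPKM, -0.83 ± 0.14). Adra1a and Adra1b, alpha-1 receptors, fell too (-0.81 ± 0.11 and -0.87 ± 0.09). Grk5, a kinase that turns such receptors off, rose from 5.74 to 13.7 FPKM (1.11 ± 0.13). In the renin-angiotensin and endothelin list 5 of 11 rose and 3 fell. Edn3, which encodes endothelin-3, went from 0.371, 0.154 and 0.896 to 9.41, 4.72, 12.3, 6.61 and 10.5 FPKM (2.69 ± 0.21, limma adjusted p = 1.68e-07). Ace, the angiotensin-converting enzyme gene, rose from 15.6 to 42.4 FPKM (1.39 ± 0.13), and Agtr1a, a receptor for angiotensin II, fell (-0.61 ± 0.10).

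Fuel-burning genes fell nearly as a block. Of 30 genes of fatty acid uptake and oxidation 28 fell and 0 rose (median -0.72, against 17.7% of all tested genes lower). Acaa2, the thiolase of the last step of mitochondrial beta-oxidation, went from 554, 575 and 558 to 179, 300.3, 196, 182 and 203 FPKM (-1.43 ± 0.13, limma adjusted p = 3.69e-07). Ech1, an isomerase for unsaturated fatty acids, went from 1182, 1290 and 1055 to 438, 553, 512, 426 and 509.6 FPKM (-1.27 ± 0.10). In both, TAC replicate 2 kept the highest level of the 5. Ces1d, a carboxylesterase with triglyceride hydrolase activity, had the largest fall of the named genes, from 61.8, 67.8 and 54.7 to 3.66, 16.7, 6.55, 9.28 and 4.78 FPKM (-2.92 ± 0.32).

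The tricarboxylic acid cycle followed, with 17 of 18 genes lower and 0 higher (median -0.49), among them Sdha, the catalytic subunit of succinate dehydrogenase (512 to 314 FPKM). Subunits of the respiratory chain encoded in the nucleus fell in 36 of 41 for complex I, 4 of 4 for complex II, 9 of 9 for complex III, 12 of 16 for complex IV and 16 of 17 for ATP synthase, and none of these subunits rose. The medians of the 5 complexes lay between -0.59 (complex II) and -0.43 (complex I). The complexes and the cycle share the 4 complex II genes, so their counts are not separate. Genes of the mitochondrial genome were not analysed here. Mitochondrial ribosomal proteins fell in 38 of 78 and rose in 1 (median -0.21).

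Other fuels were not raised as groups. Of 22 genes for the use of ketones and branched-chain amino acids 20 fell and 1 rose, the last being Bdh1, the ketone-oxidising beta-hydroxybutyrate dehydrogenase (47.1 to 104 FPKM, 1.12 ± 0.13). Ppm1k, the phosphatase that switches on branched-chain breakdown, was among those lower (-0.95 ± 0.10). Glucose genes went both ways, 12 of 31 higher and 10 lower (median 0.12). Pfkfb1, one form of the enzyme that makes and removes fructose 2,6-bisphosphate, fell from 18.6, 21.6 and 17.7 to 2.02, 4.83, 2, 2.97 and 2.14 FPKM (-2.47 ± 0.18). Slc2a4, the insulin-dependent glucose transporter, fell (-0.69 ± 0.07), while Pfkp, the platelet form of phosphofructokinase (1.30 ± 0.20), and Slc16a3, a lactate exporter (1.24 ± 0.29), rose. Of 14 creatine and phosphate shuttle genes 7 fell and 1 rose, and of 20 metabolic transcription regulators 9 fell and 0 rose. Rxrg and Rxra, nuclear receptor partners of the PPARs, fell by 0.53 and 0.50 on the log2 scale.

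Matrix genes rose broadly. Postn (chromosome 3, 54359267 to 54391041), the periostin gene of activated fibroblasts, went from 7.12, 6.52 and 7.94 to 226, 68.2, 159, 248 and 139 FPKM. The 2 groups did not overlap, replicate 2 was lowest after TAC and replicate 4 highest, and the log2 change was 4.24 ± 0.44 (limma adjusted p = 4.55e-06). Of 28 fibrillar collagen and cross-linking genes 26 rose and 0 fell (median 1.14, against 21.1% of all tested genes higher). Col8a1, a short-chain collagen of vessel walls, rose from 4, 2.54 and 3.67 to 33.8, 16.6, 23.1, 35 and 25.2 FPKM (2.62 ± 0.26), and Col3a1, a fibrillar collagen of scar and stroma, from 21.8, 23.9 and 20.9 to 106, 69, 75.5, 121 and 77.9 FPKM (1.94 ± 0.26).

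Matricellular proteins and proteoglycans rose in 20 of 24 genes (median 1.43). Cilp, a matrix protein of cartilage and of fibrotic heart, went from 0.682, 0.737 and 1.80 to 36.7, 16.2, 21.6, 33.2 and 26.5 FPKM (3.73 ± 0.37), and Ccn2, connective tissue growth factor, from 20.8, 19.1 and 28.6 to 389, 85.5, 318, 298 and 198 FPKM (3.29 ± 0.35). Thbs2, thrombospondin 2, was the member that fell (5.22 to 2.48 FPKM, -0.83 ± 0.15). Elastic fibre genes rose in 12 of 15, led by the microfibril protein Mfap4 (7.18, 4.69 and 8.64 to 98.5, 43.6, 66, 99.6 and 72.8 FPKM, 3.27 ± 0.31). Efemp1, a fibulin, fell (-1.21 ± 0.17), as did Ltbp1, a latent TGF-beta binding protein (-0.45 ± 0.12), while its relative Ltbp2 rose (3.13 ± 0.38).

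Basement membrane genes rose in 12 of 17 and fell in 1. Col4a1, a chain of the network-forming collagen of basement membranes, varied little within groups, at 57.1, 49.6 and 58.9 FPKM in sham and 131, 130.4, 141, 147 and 132 FPKM after TAC (1.29 ± 0.07, limma adjusted p = 6.32e-09). Lama5, a laminin chain, fell (-0.47 ± 0.14) but did not pass without sham replicate 3 (-0.42) or in a fit of only the 2 groups. Proteases and their inhibitors rose in 13 of 19 and fell in 1. Timp1, an inhibitor of metalloproteinases, rose from 2.03, 2.03 and 3.10 to 23.1, 7.35, 21.5, 20.8 and 22.5 FPKM (2.48 ± 0.35). Integrins and their linkers rose in 13 of 22 and fell in 3, with Zyx, the focal adhesion protein zyxin, at 1.16 ± 0.09.

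Among growth factor pathways, TGF-beta genes rose in 15 of 23 and fell in 2 (median 0.51). Of the ligands, Tgfb2 went from 1.69, 1.41 and 1.30 to 9.39, 3.34, 5.29, 10.6 and 8.44 FPKM (1.68 ± 0.25) and Tgfb1 from 14.7, 15.6 and 12.2 to 20.0, 22.6, 22.4, 20.1 and 18.2 FPKM (0.51 ± 0.08). The co-receptor Tgfbr3 fell (-0.52 ± 0.09), as did the activin receptor Acvr2b (-0.45 ± 0.11), and Fstl1, a follistatin-like secreted protein, rose (2.04 ± 0.23). The BMP pathway, which Kcp modulates, moved less. Of its 35 listed members 23 were tested, 6 rose and 3 fell (median 0.07). These counts are not far from the shares of all tested genes (21.1% higher and 17.7% lower).

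The BMP members that rose were led by Nbl1, an antagonist of the DAN family (5.96 to 17.3 FPKM, 1.36 ± 0.20), the ligand Gdf6 (0.90 ± 0.20) and Bambi, a pseudoreceptor that blocks signalling (0.76 ± 0.14). Hjv, the BMP co-receptor hemojuvelin, fell (-0.52 ± 0.10). The BMP modulators Bmper and Dand5 were also called lower, but neither passed without sham replicate 4 (-0.35 and -0.17). Id1, a direct target of BMP Smads, had 39.1, 52.6 and 55.5 FPKM in sham and 50.6, 77.9, 40.2, 40.3 and 69.2 FPKM after TAC. Its groups overlapped and it did not pass (0.14 ± 0.19, limma adjusted p = 0.593). Secreted Wnt antagonists led the 8 of 15 Wnt pathway genes that rose, with Frzb at 1.77 ± 0.21, Sfrp2 at 1.69 ± 0.31 and Dkk3 at 1.61 ± 0.27. The antagonist Wif1 fell (-1.01 ± 0.19), 1 of 4 Wnt genes to do so.

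Many cell-cycle genes rose, although most of those listed lay near or under the 1 FPKM set for testing. Ube2c (chromosome 2, 164769929 to 164772902), the ubiquitin-conjugating enzyme of the anaphase-promoting complex, had 1.10, 1.54 and 1.18 FPKM in sham and 14.9, 4.60, 24.4, 4.86 and 7.96 FPKM after TAC. The groups did not overlap, but the TAC values fell into a high pair, replicates 3 and 1, and 3 lower libraries (2.19 ± 0.39, limma adjusted p = 0.000429). Of 41 listed G2/M and mitosis genes 21 were tested, 16 rose and 1 fell. The summed level of all 41 overlapped between the groups, at 98.7 to 126 FPKM in sham and 96.7 to 203 FPKM after TAC. Because the filter may keep a gene through the group where it is high, the same list was read in a fit with no filter, where 28 of 41 rose and 1 fell, beside 2619 of 23775 genes higher (11.0%). Cks2, a small partner of cyclin-dependent kinases, went from 0.674, 0.519 and 0.460 to 5.74, 2.11, 7.13, 2.44 and 2.11 FPKM (1.53 ± 0.29).

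Ccnb1, the cyclin B1 gene that the title of the study names, was under the filter, at 0.181, 0.248 and 0.124 FPKM in sham and 2.14, 0.396, 3.45, 0.803 and 0.914 FPKM after TAC. All 5 TAC libraries lay above sham, and in the fit with no filter its log2 change was 0.97 ± 0.26 (limma adjusted p = 0.0132). Cenpf, a kinetochore protein, was the member that fell, from 1.83, 3.10 and 1.16 to 0.723, 0.479, 1.05, 0.203 and 0.266 FPKM (-0.95 ± 0.19). Of 26 tested genes of G1/S and DNA replication 14 rose and 0 fell, against 21.1% and 17.7% of all tested genes. In the fit with no filter 14 of 34 rose, beside 11.0% of all genes in that fit. Ccnd2, cyclin D2, rose from 18.5, 21.3 and 16.9 to 41.1, 34, 41.7, 34.8 and 44.4 FPKM (1.01 ± 0.13). Rrm2, a subunit of ribonucleotide reductase, rose by 1.31 ± 0.41 but did not pass without any 1 of the sham libraries (1.29 to 1.33) or in a fit of only the 2 groups.

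The promoters of Ube2c, Cks2 and Cenpf are shown because G2/M genes as a class carry CCAAT boxes, bound by NF-Y, and the cell cycle homology region TTTGAA (CHR), bound by the DREAM and MuvB complexes, and because these 3 members moved in opposite directions. The windows are again from RefSeq in GRCm38.p6, with both motifs on either strand in capitals. Ube2c lies on the plus strand at chr2:164769679-164769978, Cks2 on the plus strand at chr13:51644982-51645281 and Cenpf on the minus strand at chr1:189688037-189688336.
Ube2c: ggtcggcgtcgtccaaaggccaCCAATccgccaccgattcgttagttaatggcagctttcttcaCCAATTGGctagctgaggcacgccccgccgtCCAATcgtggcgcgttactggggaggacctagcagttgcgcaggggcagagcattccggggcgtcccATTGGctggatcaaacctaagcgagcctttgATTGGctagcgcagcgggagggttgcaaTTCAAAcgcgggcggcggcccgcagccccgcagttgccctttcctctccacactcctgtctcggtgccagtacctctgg
Cks2: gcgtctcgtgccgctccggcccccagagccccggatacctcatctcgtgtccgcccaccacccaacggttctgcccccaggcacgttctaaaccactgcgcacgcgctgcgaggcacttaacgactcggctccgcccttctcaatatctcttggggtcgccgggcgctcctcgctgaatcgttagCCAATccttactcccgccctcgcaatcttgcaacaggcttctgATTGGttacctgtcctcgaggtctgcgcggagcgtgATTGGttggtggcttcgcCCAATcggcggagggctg
Cenpf: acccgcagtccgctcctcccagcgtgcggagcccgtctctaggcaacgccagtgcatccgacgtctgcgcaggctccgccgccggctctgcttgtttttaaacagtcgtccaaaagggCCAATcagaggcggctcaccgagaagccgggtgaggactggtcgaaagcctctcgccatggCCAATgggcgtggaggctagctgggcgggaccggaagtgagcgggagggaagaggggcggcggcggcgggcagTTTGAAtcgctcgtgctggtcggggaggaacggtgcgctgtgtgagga
Ube2c holds 6 CCAAT matches, 2 of them overlapping on opposite strands, and a CHR match on the opposite strand at position -29. Cks2 holds 4 CCAAT matches and no CHR match in this window. Cenpf, which fell, holds 2 CCAAT matches and a CHR match. CCAAT was in the windows of 26 of the 35 listed genes with a window (74.3%) and in 41.1% of all windows, and the CHR letters in 23 of 35 (65.7%) and 20.2%. In the list of G1/S and DNA replication CCAAT was in 66.7% of windows and the CHR letters in 14.8%.

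The p53 genes moved in part. Trp53 had 9.52, 12.6 and 8.53 FPKM in sham and 13.1, 12.2, 12.7, 11.2 and 10.8 FPKM after TAC, overlapping ranges, and did not pass (0.23 ± 0.10, limma adjusted p = 0.0796), although it did without sham replicate 3 (0.38). Cdkn1a, which encodes the cell-cycle inhibitor p21, had 6.83, 6.24 and 23.1 FPKM in sham, with replicate 4 high, and 66.8, 26.1, 67.8, 59.3 and 49.2 FPKM after TAC (2.23 ± 0.42, limma adjusted p = 0.000718). All TAC values were above all sham values. Of 33 p53 pathway genes 14 rose and 2 fell, the last being the growth arrest gene Gadd45a (-0.60 ± 0.15) and the p53 inhibitor Mdm4 (-0.25 ± 0.08). Mdm4 did not pass without sham replicate 3 (-0.23). Its relative Mdm2, the main ligase for p53 and also its target, stood at 19.6 ± 0.362 and 21.3 ± 1.31 FPKM (limma adjusted p = 0.14). Genes of apoptosis and the BCL2 family rose in 12 of 24 and fell in 2, the survival gene Bcl2 itself from 0.869 to 3.07 FPKM (1.10 ± 0.14).

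Genes of stress programmes changed to different degrees. Gdf15 (chromosome 8, 70629393 to 70632470), a secreted cytokine that cells make under stress, went from 0.592, 0.985 and 0.566 to 14.4, 3.95, 14.3, 11.4 and 10.03 FPKM. Replicate 2 stood apart at the low end of the TAC group, still above all sham libraries (2.69 ± 0.29, limma adjusted p = 3.62e-06). It belongs to the integrated stress response, of whose 25 tested genes 15 rose and 1 fell. Atf3, a transcription factor of that response and of early stress, went from 3.45, 4.37 and 4.87 to 81.6, 10.2, 43.3, 19.8 and 14.9 FPKM (2.36 ± 0.53), with replicate 1 far above the rest. Slc7a1, an arginine transporter, fell (-0.60 ± 0.17) but did not pass without sham replicate 3 (-0.33).

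In the unfolded protein response of the endoplasmic reticulum 7 of 26 genes were called higher and 4 lower (1 lower without TAC replicate 2), with a median of 0.09. These counts are close to the shares of all tested genes (21.1% and 17.7%). Herpud1, which takes part in disposal of misfolded proteins, fell (-0.64 ± 0.15). Among 25 heat shock genes, 10 were higher and 3 lower after TAC. The near-identical pair Hspa1a and Hspa1b had wide ranges after TAC, 19, 7.36, 17.3, 9.59 and 6.41 FPKM for Hspa1a against 4.88, 3.33 and 4.86 in sham, and neither passed (limma adjusted p = 0.0587 and 0.0915), although Hspa1a did without TAC replicate 5 (1.34). Reads of such copies may be shared, so their separate values are uncertain. Immediate early genes rose in 10 of 25 and fell in 0, with Myc, a growth transcription factor, at 1.71 ± 0.24. Antioxidant and metallothionein genes went both ways (10 of 31 higher and 11 lower), with the metal-binding Mt2 at 1.93 ± 0.31 and the uncoupling protein Ucp3 at -0.95 ± 0.20.

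Tubulins and cytoskeletal genes rose in 21 of 26 and fell in 2 (median 0.57). Tubb2a, a beta-tubulin, rose from 15.2, 12.2 and 16.9 to 35, 32, 41.4, 37.3 and 41.6 FPKM (1.29 ± 0.13), whereas Tuba4a, an alpha-tubulin, fell (-0.66 ± 0.14). Ubiquitin ligases and autophagy genes were higher in 9 of 28 and lower in 5 (median 0.006). All tested genes were higher in 21.1% and lower in 17.7%, so the lower count is close to that share. Pink1, a kinase that marks damaged mitochondria, was among those lower (-0.71 ± 0.09). Of 89 cytosolic ribosomal proteins 14 were called higher (8 under median-ratio scaling) and 4 lower, both below the shares of all tested genes (21.1% and 17.7%), with a median of 0.07.

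Of 23 cardiac transcription factors 5 were called higher and 5 lower, close to the shares of all tested genes (21.1% and 17.7%). Tbx20 rose (0.79 ± 0.11) while Tbx5, another T-box factor of heart development, fell (-0.72 ± 0.12). Hopx, a homeodomain-only protein, fell from 191, 261 and 182 to 80.3, 129, 90.1, 75.5 and 81.8 FPKM (-1.21 ± 0.18). Clock genes also went both ways, 5 of 17 higher and 7 lower. Arntl (BMAL1), a core activator of the clock, stood at 0.0435, 0.199 and 0.141 FPKM in sham and 0.682, 0.422, 1.07, 2.25 and 0.558 FPKM after TAC (0.76 ± 0.21). Its output gene Dbp had 112, 140.1 and 84.8 FPKM in sham and 59.3, 85.4, 45.6, 39.6 and 68.2 FPKM after TAC, and fell (-0.92 ± 0.22) with TAC replicate 2 inside the sham range. The hour of collection is not given in the labels, and its part in these values was not tested.

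Markers of other cells of the heart moved beside these programmes. The activated fibroblast list had 9 of 12 members higher and 0 lower, and their summed level lay at 72.5 to 95.7 FPKM in sham and at 181 to 448 FPKM after TAC, ranges that do not meet. Some of these markers, such as Postn, are also in the matrix lists. Resting fibroblast markers rose in 6 of 11 and fell in 1, with Scara5, a scavenger receptor, the member that fell (-1.04 ± 0.13). Macrophage markers rose in 10 of 17 and fell in 1, with a summed level of 305 to 325 FPKM in sham and 412 to 549 FPKM after TAC. No member of these 3 lists was at 0 in every knockout library. Lgals3, the galectin-3 gene of macrophages, went from 2.12, 1.97 and 1.41 to 32.4, 4.14, 7.67, 21.4 and 4.35 FPKM (1.996 ± 0.51). Retnla, a gene of alternatively activated macrophages, went the other way, from 6.35, 6.93 and 6.90 to 0.258, 0.219, 0.463, 0.506 and 0 FPKM (-2.60 ± 0.18).

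Endothelial markers rose in 4 of 12 and fell in 0 (median 0.17). Smooth muscle and pericyte markers rose in 1 of 11 and fell in 2 (median 0.05). Over all tested genes 21.1% were higher and 17.7% lower. Neutrophil (4 tested), red blood cell (5 tested) and T, NK and B cell markers (1 tested) had 0 members past the threshold in either direction. Of 7 atrial markers Sln and Bmp10 were at 0 in every knockout library, and Myl7, the atrial light chain, reached at most 0.400 FPKM. The 4 tested atrial markers had 1 member higher, Dkk3, and 1 lower, Stard10, a lipid transfer protein gene (-1.74 ± 0.15). Markers of lung, liver and thymus summed to at most 1.21 FPKM and none was tested. What the shift in fibroblast and macrophage markers contributed to the changes in matrix and cell-cycle genes was not tested.

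Inflammatory signalling was mixed. Of 27 gp130, interleukin and chemokine genes 8 rose and 4 fell, not far from the shares of all tested genes (21.1% and 17.7%). Cx3cl1, the membrane-bound chemokine fractalkine, rose from 2.63, 2.46 and 1.60 to 7.28, 5.12, 5.50, 7.77 and 5.49 FPKM (1.16 ± 0.13). Ccl11, the eosinophil chemokine eotaxin, fell from 3.96, 5.13 and 5.10 to 0.211, 1.18, 0.288, 0.149 and 0.0889 FPKM (-2.09 ± 0.22), and the cytokine receptor Lifr fell too (-0.60 ± 0.09). Complement genes rose in 11 of 16 and fell in 1, C4b from 3.86 to 9.36 FPKM (1.13 ± 0.23). Of 25 interferon-stimulated and antigen presentation genes 5 were called higher, a share close to the 21.1% of all tested genes, and 3 without TAC replicate 2. In that library Cd74, the invariant chain of MHC class II, stood at 226.9 FPKM, while the other TAC libraries stood at 53.4 to 99.5 and sham at 52.1 to 113. Cd74 did not pass (0.13 ± 0.41, limma adjusted p = 0.829), and its value was -0.20 without TAC replicate 2.

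**Figure D3:**
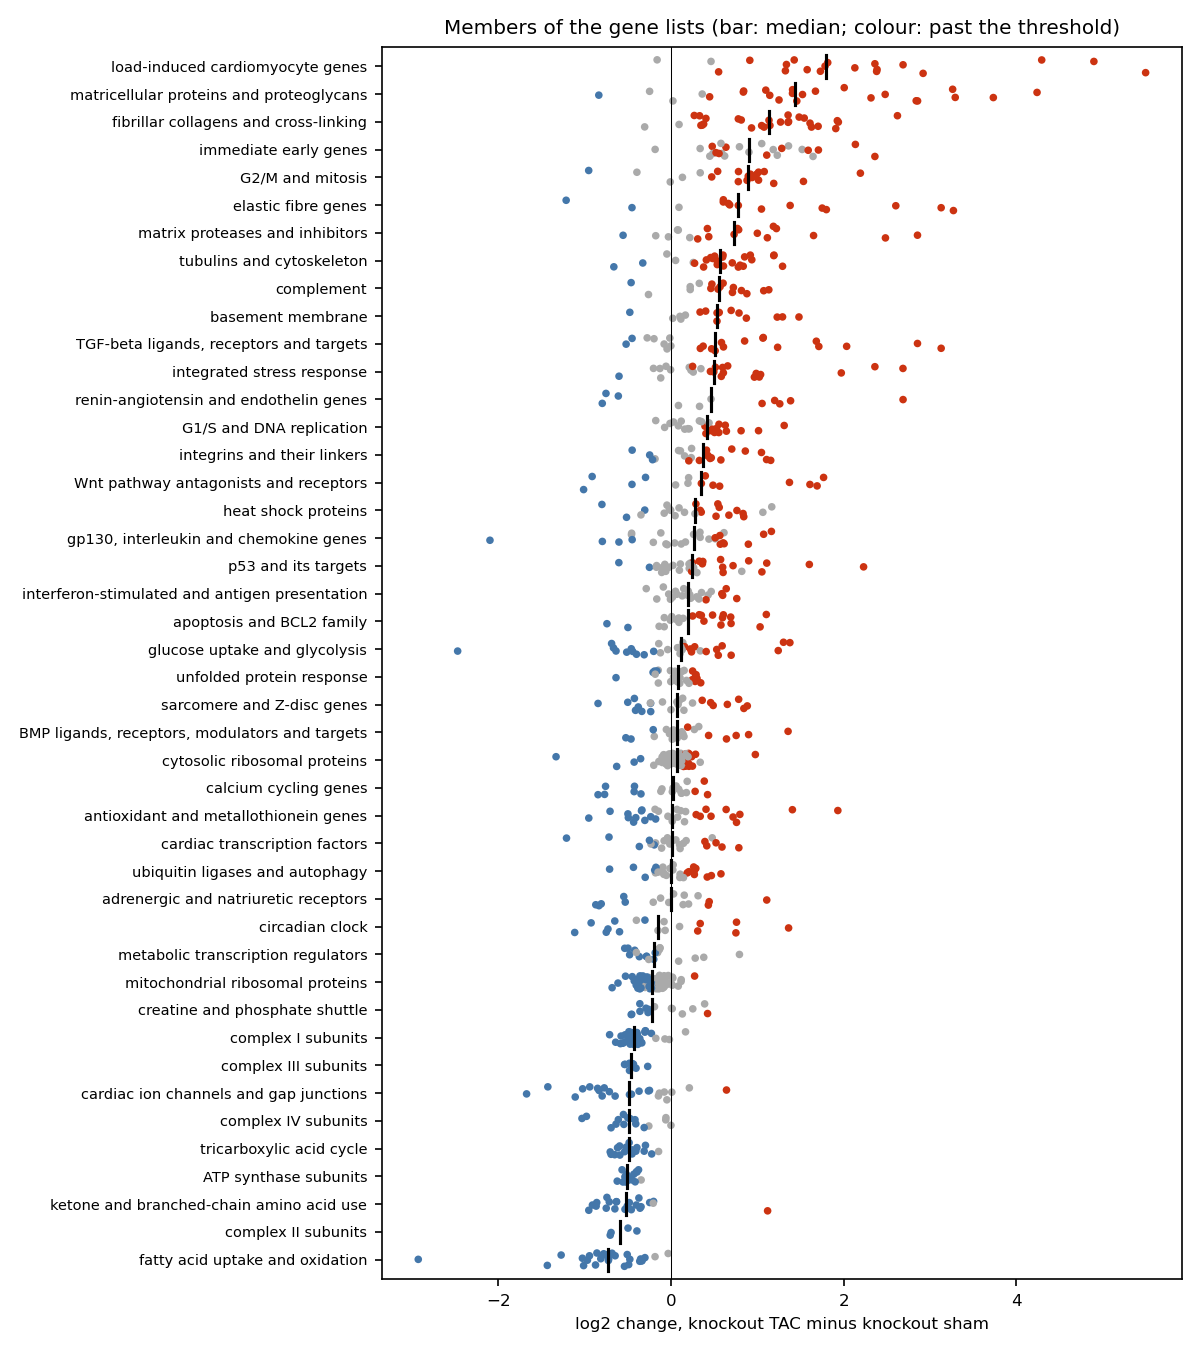
Log2 change from knockout sham to knockout TAC of each tested member (points, with random vertical offset) of 44 gene lists ordered by their median (bar). Red and blue points passed the threshold, grey ones did not. Medians run from 1.80 for load-induced cardiomyocyte genes to -0.72 for fatty acid uptake and oxidation.

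The 5 TAC libraries did not rank alike across programmes. For each list the mean of log2(FPKM + 1) over all its members, tested or not, was taken relative to the sham mean. In the G2/M list 20 of the 41 members lay below the filter. The load-induced genes stood at 2.25, 1.46, 2.02, 2.20 and 2.19 in replicates 1 to 5, lowest in replicate 2. Fibrillar collagens stood at 1.22, 0.74, 0.93, 1.32 and 0.89, highest in replicate 4. G2/M genes stood at 0.92, 0.34, 1.20, 0.34 and 0.41, so replicates 3 and 1 were high and replicates 4 and 5 were near replicate 2, although their load values were close to that of replicate 1. Immediate early genes stood at 1.60, 0.70, 1.03, 0.62 and 0.87, with replicate 1 highest. The interferon and antigen list had the reverse place for replicate 2, at 0.03, 0.91, -0.15, 0.23 and 0.10.

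Of 11 lists with a median under -0.2, 9 had the highest of the 5 TAC means in replicate 2, and of 20 lists with a median above 0.2, 10 had the lowest there. Fatty acid genes stood at -0.84, -0.55, -0.77, -0.82 and -0.77 relative to sham, and ion channels at -0.56, -0.31, -0.58, -0.57 and -0.60. Gene by gene, replicate 2 had the lowest of the 5 TAC values for 1029 of the genes called higher (40.9%) and the highest for 1117 of those called lower (52.7%). Relative to the sham mean its median change was 0.375 over genes called higher and -0.294 over genes called lower, where the other 4 libraries had medians of 0.398 to 0.495 and -0.466 to -0.389. These genes were called with that library in the fit, so the medians are descriptions. The ranks and medians were taken without median-ratio scaling. The factor by which that scaling divides a library was 1.046 for TAC replicate 2 and 0.9955 to 1.011 for the other TAC libraries. Its part in the ranks and medians was not tested.

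**Figure D4:**
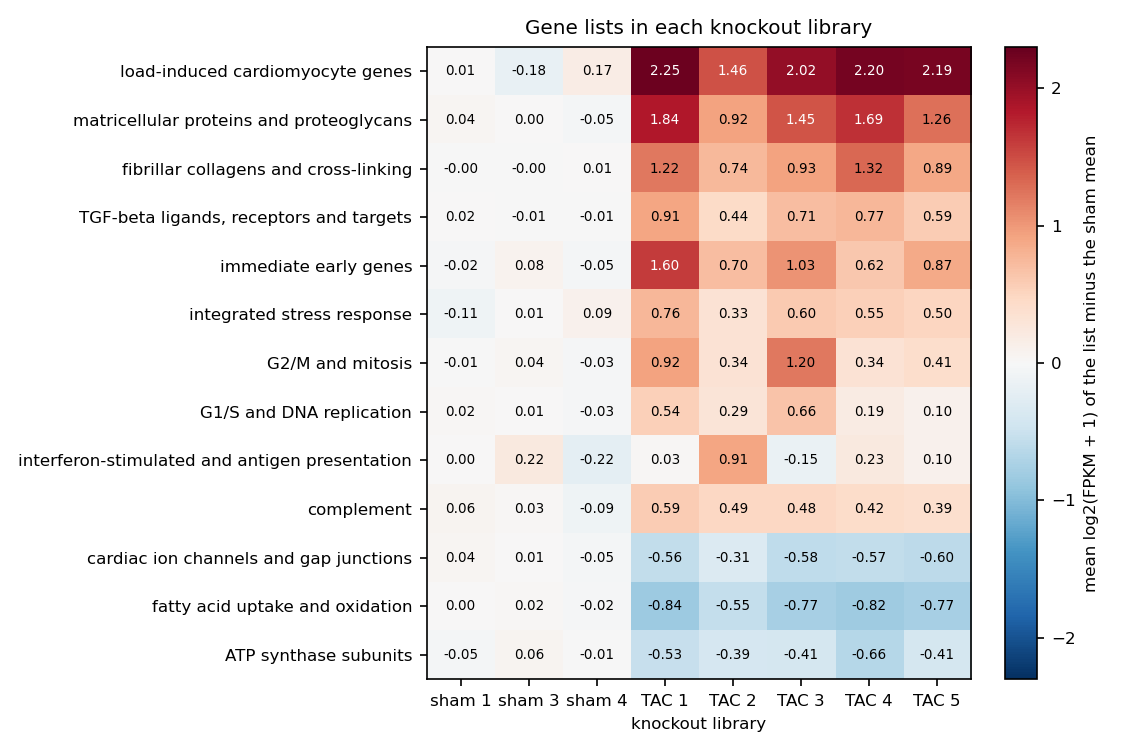
Mean log2(FPKM + 1) of 13 gene lists minus the mean of the 3 sham libraries, in each of the 8 knockout libraries (columns), with the value written in each cell and coloured from blue (lower) to red (higher). TAC replicate 2 is nearest to sham in the load, matrix and fatty acid lists and highest in the interferon and antigen list (0.91), and G2/M genes peak in TAC replicate 3 (1.20).

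Whether the knockout response differed from that of wild-type hearts was tested as an interaction, the log2 change in knockout minus that in wild type, in the same model. It passed for 111 genes (0.93%), 45 larger and 66 smaller in knockout, and 105 of the 111 also passed in knockout alone. None of Nppa, Postn, Gdf15 and Ube2c passed. Their differences were 2.14 ± 0.61, 1.69 ± 0.60, 1.57 ± 0.39 and 1.49 ± 0.53 (limma adjusted p = 0.0903, 0.149, 0.0653 and 0.15), all larger in knockout. The median change of the load list was 1.80 in knockout and 1.23 in wild type, that of fatty acid genes -0.72 and -0.32, and that of G2/M genes 0.90 and 0.17. For heat shock genes the order was the other way, 0.28 in knockout and 0.51 in wild type, and the differences of these medians were not tested. The G2/M medians cover the 21 of 41 members that met the filter, which may keep a gene through the group where it is high. With no filter the knockout median of the G2/M list was 0.68 over all 41.

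Of the genes named from this test, 6 passed under each of 25 alternatives, which did not include the fold threshold. Cpxm2, a secreted carboxypeptidase-like protein, had 5.35, 4.93 and 4.82 FPKM in knockout sham and 23, 20.8, 24.5, 20.9 and 28.7 FPKM after TAC, and its log2 change was 2.02 ± 0.12 there and 0.88 ± 0.11 in wild type (difference 1.13 ± 0.16, limma adjusted p = 0.0096). Vgll2, a muscle cofactor of TEAD, went from 0, 0.121 and 0.0698 to 2.71, 2, 3.57, 1.74 and 2.08 FPKM (difference 1.34 ± 0.19), and Akip1, a partner of protein kinase A, from 4.83, 4.68 and 5.68 to 11.3, 8.27, 9.17, 9.93 and 12 FPKM (difference 0.87 ± 0.13). Rpl3l fell by more in knockout (-1.33 ± 0.10) than in wild type (-0.48 ± 0.09, limma adjusted p of the difference = 0.0202). Agpat3, an enzyme of phospholipid synthesis (difference -0.48 ± 0.07), and Sbk3, a muscle kinase of the SBK family (difference -1.30 ± 0.21), also fell by more. Akip1, Rpl3l and Agpat3 did not reach the log2 difference of 1 that the fold threshold asked. Sbk3 went from 3.32, 3.87 and 2.50 to 0.262, 0.400, 0.390, 0.431 and 0.206 FPKM, and its relative Sbk2 from 4.45, 5.58 and 5.85 to 0.276, 0.738, 0.0744, 0.265 and 0.424 FPKM (difference -1.33 ± 0.23).

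The number of such genes hung on single libraries. It was 595 without knockout TAC replicate 2 and 171 without replicate 5, and 31, 40 and 30 without replicates 1, 3 and 4. Without knockout sham replicates 1, 3 and 4 it was 12, 43 and 60. Without wild-type sham replicates 1 to 4 it was 23, 36, 10 and 33, and without wild-type TAC replicates 1 to 4 it was 151, 43, 133 and 34. The wild-type libraries also differ from the knockout ones in a way the groups do not explain. Rps10, a ribosomal protein gene, stood at 24.2 to 31.6 FPKM in all knockout libraries and at 30.1 in wild-type TAC replicate 5, but at 47.0 to 66.9 in the other 8 wild-type libraries. Ndufb4c, a copy of a complex I subunit gene, stood at 4.47 to 11.2, 7.02 and 35.9 to 49.4 FPKM in the same order. All knockout libraries lie on 1 side, so TAC against sham in knockout was compared within it. For the interaction, genotype and this division cannot be told apart, and no value within 1 side could be had because the side of the knockouts holds no wild-type sham library. Without wild-type TAC replicate 5, the library that crosses over, 17 genes passed.

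**Figure D5:**
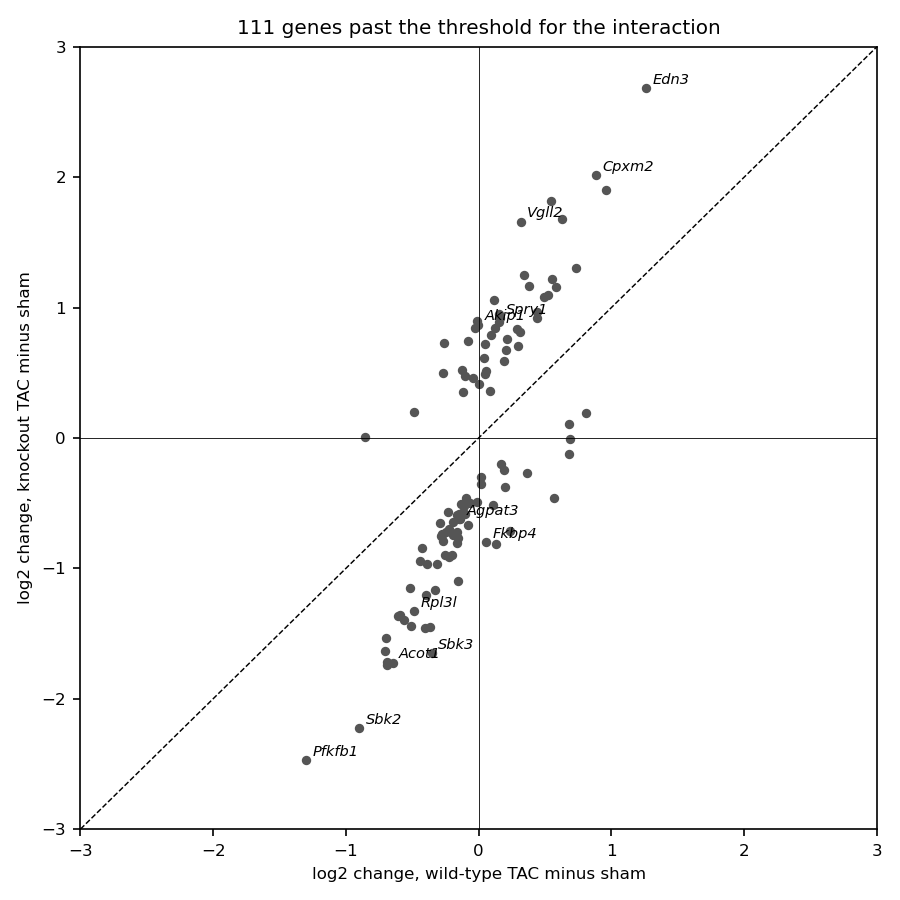
Log2 change from sham to TAC in knockout (vertical axis) against that in wild type (horizontal axis) for the 111 genes that passed the test of the difference, with the line of equal change dashed. The 45 genes above the line had the larger value in knockout and the 66 below it the smaller. Knockout values run from 2.69 for Edn3 to -2.47 for Pfkfb1.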

How the data were processed

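RNA of mouse hearts was sequenced in 18 libraries with an mRNA kit that started from total RNA, per the labels' protocols. The authors deposited 1 table of 34714 genes by 18 libraries. Its header names no unit, and the deposited values were read as FPKM because each library's values multiplied by transcript length gave a near constant total. The genome build is mm10 per the submitters' processing notes, while for the aligner and the counter the sources used here name nothing. Depth is unknown, so no counting interval is given. Low values showed no steps of whole reads.

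The log2 of FPKM + 1 was taken. A gene was tested when 3 or more of 17 libraries had it at 1 FPKM or above, with limma 3.58.1 in R 4.3.3 (group means, trend and robust moderation), with Benjamini-Hochberg adjustment over all tested genes and a threshold of 0.05. The script was tested on simulated data. Shares of isoform pairs were compared by 2-sided exact permutation tests over libraries. Gene lists and cell type markers were described by counts and medians, with no test. Of the lists not given in the report, the Schwann cell and neuron, epicardium, mast cell, adipocyte and skeletal muscle markers had 0, 2, 1, 1 and 0 members higher and 1, 0, 0, 0 and 2 lower, and the sex-linked genes 0 in either direction. The members and lists were chosen with earlier results of these data known, and give no independent support.

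Genes were named by rule: a fixed set (Kcp, the 4 markers, Trp53, Cdkn1a, Ccnb1), the 12 largest rises and falls and the 8 largest gains and losses in FPKM among called genes whose libraries did not overlap, up to 3 rises and 3 falls per list (or the 2 smallest p-values where none passed), the 6 smallest adjusted p in each direction of the interaction, and the isoform pairs. This names 238 genes, of which the text describes a part. Fhl2, Edn1, Csrp3, Xirp2, Id1, Mdm2, Tgfb1, Tgfb2, Hspa1a, Hspa1b, Cd74, Sln, Bmp10, Myl7, Ndufb4c and Rps10 were named after their values were seen, some to complete a list. Coordinates and promoter windows are from RefSeq for GRCm38.p6, where 27024 genes of the table had a window. Replicate numbers did not pair the libraries. Alternatives were all 18 libraries, a replicate block, other pseudocounts, filters, scaling and moderation, only the groups compared, a fold threshold, and each library left out.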

Additional observations from a re-analysis of the deposited data

Results flagged for a closer look

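Of 52 genes and isoform shares examined in the 5 knockout TAC libraries, 3 had 1 library far from the other 4, and chance alone flags about 1 in 20 such groups. Ccl11 stood at 1.18 FPKM in knockout TAC replicate 2, where the other 4 libraries had 0.0889 to 0.288. Pcp4, a calmodulin-binding peptide gene, stood at 0.146 FPKM in replicate 3 and at 0 in the others. Myl2 stood at 6222 FPKM in replicate 4, below 6843 to 7090 in the others. In all 3 genes the library concerned remained below the sham libraries.

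The log2 change after TAC differed between knockout and wild type, by the interaction test in limma with Benjamini-Hochberg adjustment, for 24 of the genes named. Larger values in knockout, as differences of log2 changes, were found for Edn3 (1.43), Vgll2 (1.34), Cpxm2 (1.13), Akip1 (0.87), Plek (0.82), Spry1 (0.76), the gene model 1110002E22Rik (0.74), Zyx (0.57) and Wwtr1 (0.40). Smaller values were found for Sbk2 (-1.33), Sbk3 (-1.30), Pfkfb1 (-1.17), Acot1 (-1.08), Stard10 (-1.05), the gene model Gm38455 (-0.94), Fkbp4 (-0.85), Rpl3l (-0.84), Lgr6 (-0.69), Hspd1 (-0.62), Hsdl2 (-0.61), Mpc2 (-0.59), Agpat3 (-0.48), Tnni3 (-0.42) and Suclg1 (-0.36). Many of these calls depend on the setting. Of 25 alternatives, Suclg1 passed in 6, Pfkfb1, Tnni3 and Wwtr1 in 10, Mpc2 in 11, Zyx, Lgr6 and Hspd1 in 12, and Edn3 in 13. The gene model 1110002E22Rik passed in 17, Stard10 in 18, Spry1 in 20, Fkbp4 in 21, Acot1 in 22, Plek and Gm38455 in 23, and Sbk2 and Hsdl2 in 24. The other 6 genes passed in all 25, which did not include the fold threshold. Genotype and the division of the libraries by Rps10 and Ndufb4c cannot be told apart in these differences.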

How the results depend on the processing

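The count of genes called in knockout TAC against sham was 428, with 308 higher and 120 lower, when a log2 change of at least 1 was also asked. It stayed within 1.5 times of 4633 under the other alternatives, with 3731 to 4733 genes when 1 library was left out, and median-ratio scaling moved the median of all genes from 0.0138 to 7.29e-05. The same-numbered libraries did not deviate together (correlations 0.0172, -0.019 and 0.0719 in knockout), and a replicate block gave 4470 genes. The interaction gave 300 genes with all 18 libraries, 345 with the replicate block, 16 with no filter on low values, 199 with median-ratio scaling, 461 without knockout TAC replicate 2 and wild-type TAC replicate 5 together, 14 with a log2 difference of at least 1, and 10 to 595 when 1 library was left out. The cause was not tested.

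The share of Myh7 passed with knockout sham replicate 2 included (9.22 points, exact permutation p = 0.016), without knockout TAC replicate 2 (11.2 points, exact p = 0.029) and as a log2 ratio (2.23, exact p = 0.036), and its left-out differences ran from 7.5 to 11.2 points. It did not pass with any other library left out (exact permutation p = 0.057 for TAC and 0.095 for sham libraries). The share of Nmrk2 ran from 21.0 to 27.4 points and lost its call (exact permutation p = 0.057) without knockout TAC replicate 1, 3, 4 or 5, at 23.1, 23.7, 22.9 and 24.4 points. Of 3250 values of 250 single genes, 3121 kept their direction and side of the threshold. Those that changed sign belonged to genes that did not pass. Over the libraries left out in turn, S100a9 ran from -0.01 to 0.37 (-0.13 with the replicate block), Cd79a from -0.29 to 0.06, Hbb-bt from -0.0035 to 0.23, Nmrk1 from -0.12 to 0.03, Id1 from -0.01 to 0.24 and Cd74 from -0.20 to 0.36. Trp53 passed with all 18 libraries and with the replicate block (0.27 in each), and Hspa1a and Hspa1b passed with all 18 libraries (1.17 and 1.08) and with only the groups compared. With the replicate block Mb did not pass (-0.20) and Edn1 did (0.74). Leaving out sham replicate 3 ended most calls, 21 of 250 genes.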

Other observations

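Several of the largest falls lay outside the lists described above. Penk, which encodes the opioid precursor proenkephalin, went from 5.25, 7.55 and 5.97 in knockout sham to 0.613, 1.96, 0.781, 0 and 0.428 FPKM after TAC (log2 change -2.13 ± 0.28, limma adjusted p = 2.5e-05). Lgals4, the galectin-4 gene, went from 43.2, 58.8 and 33.9 to 10.9, 16, 11.6, 9.01 and 8.70 FPKM (-1.91 ± 0.22), and Clcn1, the skeletal muscle chloride channel, from 4.83, 6.20 and 4.10 to 0.491, 1.15, 0.695, 0.572 and 0.513 FPKM (-1.84 ± 0.17). Pla2g5, a secreted phospholipase, and Inmt, a methyltransferase for tryptamine, fell by 1.76 and 2.02 on the log2 scale. In Penk, Lgals4, Clcn1 and Inmt, TAC replicate 2 had the highest of the 5 TAC values, whereas for Pla2g5 replicate 3 had it.

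Motif shares were counted for 7 further lists, as descriptions of letters in RefSeq promoter windows on either strand. The letters TGATGCAA, a site of ATF4, were in the windows of 7 of 26 genes of the integrated stress response (26.9%) and in 1.03% of all windows. GAANNTTC, a heat shock element, was in 14 of 20 heat shock genes (70.0%) and in 9.04% of all windows. TTNGCGC, a site of E2F factors, was in 13 of 27 genes of G1/S and DNA replication (48.1%). It was in 7.24% of all windows and 12.3% of those of tested genes. TGANTCA, a site of AP-1, was in 0 of 21 immediate early genes and in 8.97% of all windows. TNAAGGTCA, a site of the estrogen-related receptors, was in 0 of 25 fatty acid genes, 1 of 35 complex I genes (2.86%) and 1.43% of all windows. In fibrillar collagen and cross-linking genes GGAATG was in 2 of 21 windows (9.52%), against 16.6% of all windows.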
